A study of Mus musculus with 8 samples.

Results

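The transcription factors that set natural killer (NK) cell identity and maturation were followed across 4 groups of sorted NK cells. They are 10 genes chosen by name for their known roles: Tbx21, Eomes, Gata3, Id2, Nfil3, Ets1, Zeb2, Prdm1, Tox and Ikzf3. All 10 were found among the 48321 gene symbols of the count tables, and all 10 were among the 12595 genes with enough reads to be tested. NK cells (CD45+ TCRb- NK1.1+) were sorted from the lung and from the spleen of mice of the strain given as C57/Bl6, freshly and without stimulation, and their RNA was sequenced. The mice were either wild type (WT) or homozygous for Ccl5ΔPE (KO), a germline deletion of Ccl5-PE, the enhancer nearest to the gene of the chemokine CCL5, so the deletion was present in all cells and not in NK cells alone. The lines were bred and housed apart, and the animals were of both sexes and at most a few months old. A KO effect below is the difference between KO and WT, in which the deletion cannot be told apart from line or housing. Each of the 4 groups, lung WT, lung KO, spleen WT and spleen KO, has 2 libraries. It is not stated if the pair of libraries in a group stands for separate animals, so the p-values below measure only the spread between these libraries, which may be technical.

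NK cells arise from innate lymphoid progenitors in which NFIL3, ETS1, ID2 and TOX are needed for the lineage to form, ID2 by binding and blocking E proteins, the factors that drive B and T cell fates. The T-box factors T-bet (gene Tbx21) and EOMES then control the identity of the cells: EOMES is characteristic of conventional NK cells, and T-bet is required both for their terminal maturation and for the related type 1 innate lymphoid cells (ILC1). ZEB2 acts with T-bet late in maturation, BLIMP-1 (Prdm1) and Aiolos (Ikzf3) are expressed as NK cells mature, and GATA3 is used by thymic NK cells, ILC1 and, at high levels, group 2 innate lymphoid cells (ILC2).

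Between 3132963 and 26482366 reads per library were counted on genes, and 3 reads, the limit that a count of 0 allows, correspond to 0.113 to 0.958 CPM (reads on a gene, scaled to a common library size). All levels below are CPM with TMM factors, which lay between 0.954 and 1.03. Libraries of the same group were nearly as close as counting noise allows: the chi-square per gene was 1.20 to 1.42, where counting noise alone gives 1, and the spread that edgeR estimated in common for all genes was a coefficient of variation of 2.5%. Ccl5 itself was 19520 and 18350 CPM in lung WT against 2992 and 3195 CPM in lung KO. In the spleen it was 16680 and 15660 CPM in WT against 2676 and 2432 CPM in KO, so each library matched the genotype in its label. All 9 NK cell markers had reads in every group. They summed to 52100 to 53700 CPM in lung WT and 41700 to 42200 CPM in lung KO. In the spleen they summed to 38500 to 39200 CPM in WT and 49800 to 52300 CPM in KO. The largest part was Gzma, with means of 24830 CPM in lung WT and 18000 CPM in lung KO. Its means were 15490 and 21990 CPM in the WT and KO spleen. Prf1 and Il2rb, of the same list, moved the other way in both organs. T cell markers summed to 48.5 to 68.6 CPM in the lung and 158 to 178 CPM in the spleen, and B cell markers to 5.18 to 8.30 CPM in the lung and 38.2 to 44.4 CPM in the spleen. Markers of lung epithelium, endothelium and stroma summed to 319 to 324 CPM in lung WT and 441 to 481 CPM in lung KO. In the spleen 5 of these 6 genes were at 0, and Pecam1 averaged 69.92 CPM in WT and 67.62 CPM in KO. In lung WT and KO, Sftpc averaged 153.9 and 266.6 CPM, Sftpa1 12.68 and 46.46 CPM and Pecam1 59.09 and 79.23 CPM. The others were lower in lung KO: Scgb1a1 (85.34 and 62.16 CPM), Cdh5 (8.999 and 6.231) and Col1a1 (1.461 and 0.3401). Platelet and erythroid genes, 4 of 4 with reads in each group, summed to 42.8 to 52.1 CPM in the lung and 1.25 to 2.87 CPM in the spleen. The genes behind the lung sum moved in opposite directions. Pf4 averaged 8.434 CPM in lung WT and 0.8862 CPM in lung KO, and Ppbp 20.67 and 5.415 CPM. Hba-a1 averaged 6.294 CPM in lung WT and 9.944 CPM in lung KO, and Hbb-bs 14.88 and 30.18 CPM. Of 7 myeloid genes, 4 or 5 had reads in each group, with sums of 143 to 170 CPM. These sums are mostly Itgax, which averaged 125.9 to 149.4 CPM in the groups. Of the 7, S100a8 and S100a9 were at 0 in all groups. Lyz2 averaged 13.99 CPM in lung WT, 24.35 CPM in lung KO and 2.693 and 2.865 CPM in the WT and KO spleen. Csf1r averaged 5.279 CPM in lung WT and 4.837 CPM in lung KO, and Cd14 0.6994 and 0.3751 CPM. Of 5 ILC2 genes, Il5 and Il13 were at 0 in all groups, and Il1rl1 averaged 0.4754 to 1.771 CPM. The sum of that list, 688 to 1030 CPM, is nearly all Klrg1, which NK cells also express. The part of these other cells in the results was not tested. In bulk RNA, fewer cells that express a gene and less RNA of it per cell cannot be told apart.

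Per kb of exon, the 10 transcripts spanned a wide range of levels. The length used is that of all annotated exons of a gene joined, for example 19.942 kb for Zeb2 and 7.609 kb for Tox. The order of genes with close levels depends on that choice. Averaged over the 8 libraries, Id2 had the highest level with 1043 ± 141 CPM per kb (SD, n = 8), followed by Ets1 with 345.2 ± 43.6, Tbx21 with 118.8 ± 53.9, Gata3 with 94.49 ± 9.09 and Eomes with 49.72 ± 2.79 CPM per kb. Ikzf3 (27.96 ± 1.81 CPM per kb), Nfil3 (26.87 ± 6.15), Tox (14.81 ± 2.69), Zeb2 (13.27 ± 3.39) and Prdm1 (4.009 ± 1.26) were lower. The means of Ikzf3 and Nfil3, and of Tox and Zeb2, differed by less than their spread over the libraries. Those of Tbx21 and Gata3 differed by less than the spread of Tbx21 but by more than that of Gata3. This spread includes the differences between the 4 groups. Within a group, neighbours in this order were separate in their libraries, except Zeb2 and Tox in lung WT. The order was not the same in each group. Nfil3 was above Ikzf3 in lung KO and below it in the other groups, and Zeb2 was above Tox in the lung (with overlapping libraries in WT) and below it in the spleen. The place of Tbx21 also changed. Tbx21 exceeded Gata3 in lung KO (192.5 against 103.2 CPM per kb) and in WT spleen (135.2 against 101.5). It was below Gata3 in lung WT (87.93 against 90.97) and in KO spleen (59.75 against 82.36). The ratio of the highest to the lowest group mean was 3.22 for Tbx21, 2.09 for Prdm1, 1.82 for Zeb2, 1.66 for Nfil3 and 1.58 for Tox, and it was 1.13 to 1.38 for Eomes, Ikzf3, Gata3, Ets1 and Id2.

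**Figure D1:**
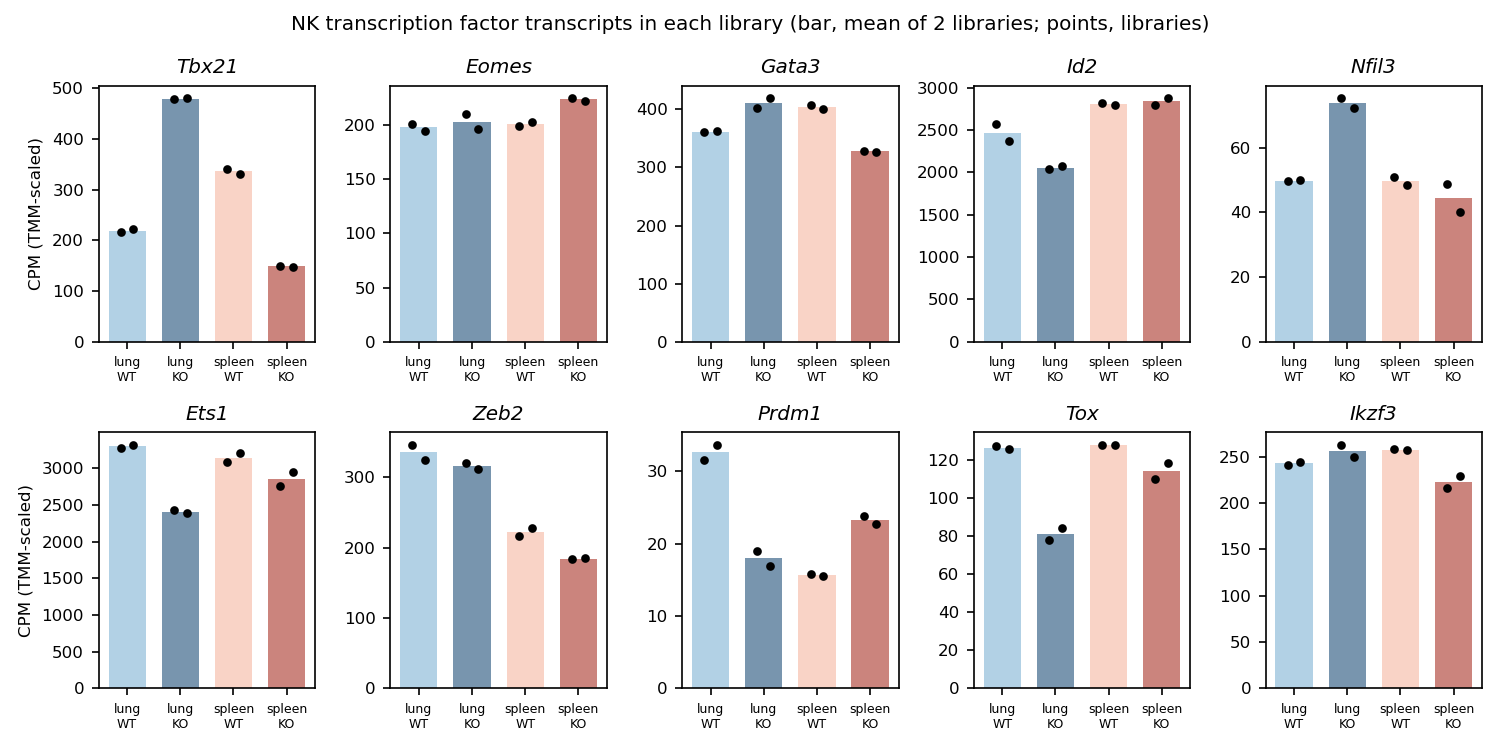
Level of each transcription factor transcript in the 8 libraries, in TMM-scaled CPM on a linear axis that starts at 0 (bars, mean of the 2 libraries of a group; points, libraries). Tbx21 is highest in lung KO (477.9 and 480.1 CPM) and lowest in spleen KO (147.5 and 149.8 CPM), Prdm1 shows another order, with its highest points in lung WT (31.58 and 33.68 CPM), and the Eomes bars are nearly level.

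The first question was which of these factors differ between KO and WT NK cells in each organ. In the lung, Tbx21, Nfil3 and Gata3 were higher in KO and Prdm1, Tox, Ets1 and Id2 were lower, while Eomes, Zeb2 and Ikzf3 did not pass the test. In the spleen, Prdm1 and Eomes were higher in KO, and Tbx21, Gata3, Zeb2, Nfil3, Ikzf3, Ets1 and Tox were lower. Thus 7 of 10 were called in the lung (edgeR quasi-likelihood test, false discovery rate 0.05), where 55.6% of all genes tested were called, and 9 of 10 in the spleen, where 57.1% were. By direction, 3 were higher and 4 lower in lung KO, beside 29.2% and 26.4% of all genes, and 2 were higher and 7 lower in spleen KO, beside 28.2% and 28.9%. Since most genes were called, a call by itself sets none of the 10 apart. The median log2 difference of the 10 genes was -0.04 in the lung and -0.16 in the spleen, and that of all genes 0.02 and 0.00. When the coefficient of variation between libraries was instead assumed to be 0.2, Tbx21 was the 1 member called in either organ, with an adjusted p in edgeR of 0.0023 in the lung and 0.002 in the spleen.

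**Figure D2:**
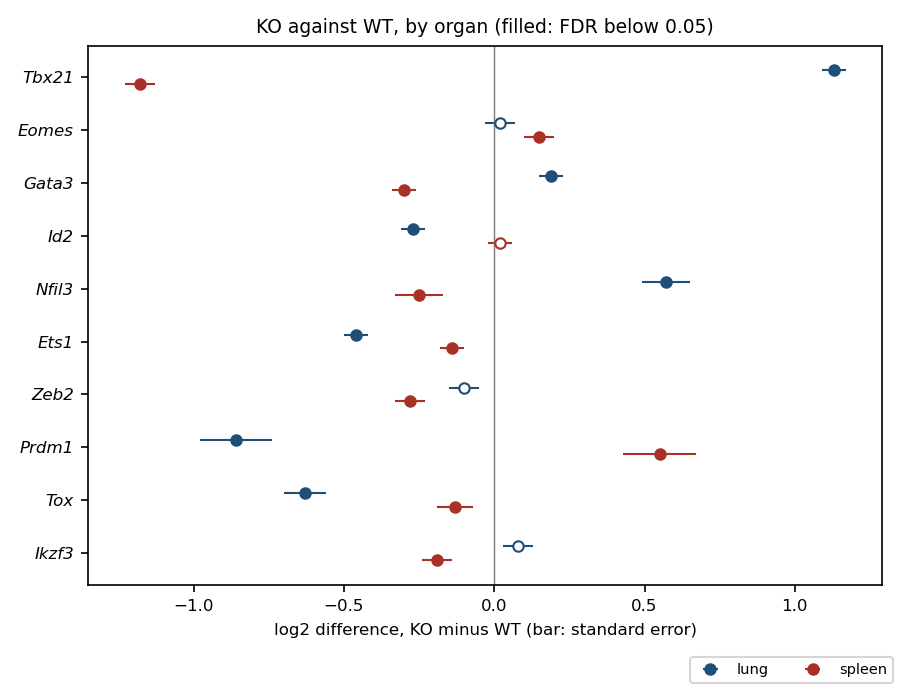
Log2 difference between KO and WT for each transcription factor, in the lung (blue) and in the spleen (red), with its standard error, from the edgeR fit to the 8 libraries (filled points, false discovery rate below 0.05). Tbx21 lies at 1.13 in the lung and at -1.18 in the spleen, and Prdm1 at -0.86 and 0.55.

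Tbx21 encodes T-bet. The gene lies on chromosome 11 (GRCm38, 97098071 to 97115331, minus strand), the chromosome that also carries Ccl5, 13.6 Mb away. Tbx21 transcripts were at 216.1 and 221.5 CPM in lung WT and at 477.9 and 480.1 CPM in lung KO. In the spleen they were at 341.5 and 331.1 CPM in WT and at 149.8 and 147.5 CPM in KO. All 4 groups were separate, and KO lay above WT in the lung and below WT in the spleen. Tbx21 thus rose 2.19-fold in lung KO, a log2 difference of 1.13 ± 0.04 (SE; edgeR adjusted p = 3.4e-22), and fell to 0.442 of its WT level in spleen KO, a log2 difference of -1.18 ± 0.05 (edgeR adjusted p = 5.1e-22). The KO effect in the lung minus that in the spleen was 2.31 ± 0.06 on the log2 scale (edgeR adjusted p = 3.4e-27). Tbx21 is rich in G and C (59.32% of the bases of its longest transcript, the highest of the 10). Over 12501 genes that are not independent, the log2 difference moved with GC content (descriptive Spearman rho 0.289 in lung and -0.272 in spleen). With this trend taken out, the log2 difference of Tbx21 was 0.82 in the lung and -0.90 in the spleen, and both were still called.

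Eomes, the other T-box factor of NK cells, differed far less. Its transcripts were at 201.4 and 194.8 CPM in lung WT, 210.0 and 196.2 CPM in lung KO, 199.6 and 203.3 CPM in spleen WT and 224.9 and 222.6 CPM in spleen KO. In the lung the libraries of WT and KO overlapped, and in the spleen both KO libraries were above both WT libraries. The log2 difference was 0.02 ± 0.05 in the lung (SE; edgeR adjusted p = 0.71) and 0.15 ± 0.05 in the spleen (edgeR adjusted p = 0.0094), and the difference between these effects did not pass the test (-0.12 ± 0.07, edgeR adjusted p = 0.14). With the GC trend taken out, the lung value was -0.13 (edgeR adjusted p = 0.025) and the spleen value 0.27, and their difference was -0.40 and was called (edgeR adjusted p = 2.4e-06). With library totals in place of TMM factors, the spleen value was 0.08 (edgeR adjusted p = 0.17), and the call was also lost in DESeq2 (adjusted p = 0.075) and without spleen KO replicate 2 (edgeR adjusted p = 0.09). Per kb of exon, the ratio of Tbx21 to Eomes was 1.79 and 1.90 in the lung WT libraries and 3.80 and 4.09 in those of lung KO. In the spleen it was 2.86 and 2.72 for WT and 1.11 for each KO library. The balance of the T-box transcripts was therefore tilted most to Tbx21 in lung KO and was nearest to equal in spleen KO.

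The 250 bases before a RefSeq start site of Tbx21 and of Eomes are shown because these T-box genes had the largest and the smallest range over the groups. Those of Prdm1 are shown because its KO effects had the opposite sign to those of Tbx21 in both organs. In the annotation used for exon lengths, Prdm1 reaches to position 44528501, so its window lies inside the annotated gene. The bases before that outer end were not searched. The sequences are from RefSeq (GRCm38.p6), are written 5′ to 3′ on the strand of the gene, and lie at chr11:97115332-97115581 (minus strand, Tbx21), chr9:118477939-118478188 (plus strand, Eomes) and chr10:44458749-44458998 (minus strand, Prdm1). Capitals mark CAGGTG, an E-box of the kind ZEB proteins bind.
Tbx21: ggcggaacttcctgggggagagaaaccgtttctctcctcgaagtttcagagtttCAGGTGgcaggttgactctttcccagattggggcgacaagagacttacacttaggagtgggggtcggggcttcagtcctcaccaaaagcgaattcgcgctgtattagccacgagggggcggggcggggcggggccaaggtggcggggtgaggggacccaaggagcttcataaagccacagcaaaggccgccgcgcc
Eomes: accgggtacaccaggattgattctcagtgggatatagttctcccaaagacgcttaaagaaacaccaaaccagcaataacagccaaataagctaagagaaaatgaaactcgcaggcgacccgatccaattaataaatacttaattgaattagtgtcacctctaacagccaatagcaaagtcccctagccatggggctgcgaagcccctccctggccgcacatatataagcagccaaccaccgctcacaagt
Prdm1: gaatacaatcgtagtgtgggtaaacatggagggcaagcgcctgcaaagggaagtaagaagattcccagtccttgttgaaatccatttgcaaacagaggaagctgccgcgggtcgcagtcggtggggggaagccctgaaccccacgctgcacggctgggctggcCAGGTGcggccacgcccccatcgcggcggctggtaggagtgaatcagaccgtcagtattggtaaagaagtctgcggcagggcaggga
On both strands, these windows were searched for the E-box above, the T-box core TCACAC, the RUNX binding core TGTGGT and the GATA factor core GATAAG. They were also searched for the ETS family string CGGAAG and the NFIL3 motif TTANGTAA. Shorter ETS strings were not searched for. The only match in the Tbx21 window and the only match in the Prdm1 window were the E-box, and the Eomes window held none of the 6. Of 32851 RefSeq windows of this length, 17.2% hold the E-box, so its presence is common. The Tbx21 window has 60.8% G and C, that of Prdm1 59.2% and that of Eomes 46.4%. A match is a string of letters and not evidence of binding.

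Among the factors of early lineage formation, Nfil3 moved in the same directions as Tbx21. NFIL3 is a basic leucine zipper factor without which few conventional NK cells form. Its transcripts were at 49.60 and 50.00 CPM in lung WT and at 75.32 and 72.38 CPM in lung KO, without overlap, and the log2 difference was 0.57 ± 0.08 (SE; edgeR adjusted p = 4.1e-07). In the spleen they were at 50.96 and 48.49 CPM in WT and at 48.64 and 40.14 CPM in KO, so that 1 KO library lay within the WT range. The fitted log2 difference there was -0.25 ± 0.08 (edgeR adjusted p = 0.0094). That call rested on spleen KO replicate 2, the most deeply sequenced library: without it the value was -0.02 (edgeR adjusted p = 0.93). The call was also lost in DESeq2 (adjusted p = 0.28) and with the GC trend taken out (-0.10, edgeR adjusted p = 0.29).

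Id2, Ets1 and Tox were lower in lung KO than in lung WT, and Ets1 and Tox were also lower in spleen KO, by less. Id2 was at 2571 and 2372 CPM in lung WT and at 2039 and 2071 CPM in lung KO, a log2 difference of -0.27 ± 0.04 (SE; edgeR adjusted p = 8.3e-08). In the spleen, Id2 was at 2821 and 2800 CPM in WT and at 2799 and 2877 CPM in KO, and the libraries overlapped (log2 difference 0.02, edgeR adjusted p = 0.73). The difference between the KO effects on Id2, -0.28 ± 0.05 (edgeR adjusted p = 9e-06), shrank to -0.07 with the GC trend taken out (edgeR adjusted p = 0.16). ETS1, founder of the ETS family and needed for NK cell formation, had transcripts at 3275 and 3321 CPM in lung WT and at 2424 and 2385 CPM in lung KO. Ets1 levels were 3083 and 3207 CPM in spleen WT and 2758 and 2953 CPM in spleen KO. All KO libraries were below the WT libraries of their organ, by a log2 difference of -0.46 ± 0.04 in the lung (edgeR adjusted p = 2.1e-13) and -0.14 ± 0.04 in the spleen (edgeR adjusted p = 0.0013), the latter lost without spleen KO replicate 1 (edgeR adjusted p = 0.058).

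Tox, which encodes an HMG-box protein needed for lymphoid tissue inducer and NK cells, was at 127.6 and 125.9 CPM in lung WT and at 77.98 and 84.49 CPM in lung KO. The groups were well apart, with KO at 0.641 of WT (log2 difference -0.63 ± 0.07, SE; edgeR adjusted p = 2e-10). In the spleen, Tox was at 128.1 and 128.3 CPM in WT and at 110.3 and 118.9 CPM in KO. That log2 difference of -0.13 ± 0.06 was just past the threshold (edgeR adjusted p = 0.044) and was called in 8 of 19 alternatives. T cell markers, summed, were also lower in lung KO (48.5 to 51.2 CPM) than in lung WT (67.5 to 68.6 CPM). Among them, Trac differed most, with means of 22.63 CPM in lung WT and 10.05 CPM in lung KO. Cd3d averaged 16.76 and 14.96 CPM, Cd3e 7.351 and 6.914 CPM and Cd3g 21.15 and 16.79 CPM, while Cd4 went from 0 to 0.9879 CPM. The part of T cells in the Tox result was not tested.

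Gata3, a zinc finger factor, moved with Tbx21 but by less. It was at 360.5 and 363.2 CPM in lung WT, 401.6 and 419.2 CPM in lung KO, 406.7 and 400.8 CPM in spleen WT and 329.1 and 326.2 CPM in spleen KO. No library of KO overlapped with WT of the same organ. The log2 difference was 0.19 ± 0.04 in the lung (SE; edgeR adjusted p = 0.0003) and -0.30 ± 0.04 in the spleen (edgeR adjusted p = 8.7e-08), and these effects differed by 0.49 ± 0.06 (edgeR adjusted p = 4.5e-09). The genes Gata3, Zeb2 and Tox each share exon bases with a gene on the opposite strand that had reads of its own, Gm13256 (155 bases), Zeb2os (653 bases) and Gm11802 (260 bases), and since the strand setting of the counting is not given, their counts are uncertain to that extent.

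Of the factors of late maturation, Prdm1 had the second largest KO effect of the 10 in the lung and again in the spleen. BLIMP-1 is a transcriptional repressor. Its transcripts were the lowest of the 10, at 31.58 and 33.68 CPM in lung WT, 19.04 and 16.87 CPM in lung KO, 15.74 and 15.54 CPM in spleen WT and 23.83 and 22.67 CPM in spleen KO. The groups were separate, and the order of KO and WT was the reverse of that of Tbx21 in each organ. Prdm1 fell to 0.550 of WT in lung KO (log2 difference -0.86 ± 0.12, SE; edgeR adjusted p = 1.3e-07) and rose 1.49-fold in spleen KO (0.55 ± 0.12, edgeR adjusted p = 0.00011). The difference of the effects was -1.41 ± 0.17 (edgeR adjusted p = 2.5e-09), and it was still called with an assumed coefficient of variation of 0.2 (edgeR adjusted p = 0.014). The plasma cell markers, of a cell type that also expresses Prdm1, summed to 253 to 262 CPM in lung WT and 305 to 318 CPM in lung KO, and to 329 to 334 CPM in WT spleen and 301 to 305 CPM in KO spleen. These sums are nearly all Xbp1, which averaged 257.8 to 310.4 CPM in the groups. Jchain averaged 0.1865 CPM in lung WT, 4.089 CPM in lung KO, and 21.25 and 9.177 CPM in the WT and KO spleen, and Sdc1 was at 0 in all groups but lung KO. The part of plasma cells in the Prdm1 result was not tested.

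Zeb2, a zinc finger and homeobox repressor, was at 346.2 and 324.6 CPM in lung WT and at 320.1 and 312.1 CPM in lung KO, and at 217.1 and 228.5 CPM in spleen WT and 183.8 and 184.7 CPM in spleen KO. KO was lower in the spleen (log2 difference -0.28 ± 0.05, SE; edgeR adjusted p = 5.9e-06), and the lung value of -0.10 ± 0.05 did not pass (edgeR adjusted p = 0.071). Zeb2 has the lowest GC content of the 10 (40.59%), and with the GC trend taken out its lung value turned to 0.11 (edgeR adjusted p = 0.018) and its spleen value was -0.48. Ikzf3, on chromosome 11 at 14.9 Mb from Ccl5, was at 240.7 and 244.8 CPM in lung WT, 263.0 and 249.4 CPM in lung KO, 257.8 and 257.1 CPM in spleen WT and 216.1 and 229.2 CPM in spleen KO. Its fall in spleen KO passed the test (-0.19 ± 0.05, edgeR adjusted p = 0.00063), and the value of 0.08 ± 0.05 in the lung did not (edgeR adjusted p = 0.18). The lung value of Ikzf3 was called in edgeR at 0.17 with library totals (adjusted p = 0.0036) and at 0.15 with the GC trend taken out (0.004).

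Tested directly, the KO effect differed between lung and spleen for 9 of the 10 genes, where 61.6% of all genes tested were called. The lung value was higher for 5 and lower for 4, beside 32.5% and 29.0% of all genes. It was higher for Tbx21, Nfil3 (0.82 ± 0.12 on the log2 scale, SE), Gata3, Ikzf3 (0.27 ± 0.07) and Zeb2 (0.19 ± 0.07), and lower for Prdm1, Tox (-0.50 ± 0.09), Ets1 (-0.32 ± 0.05) and Id2. The call of Zeb2 was lost in DESeq2 (adjusted p = 0.14) and in edgeR without lung WT replicate 2 (adjusted p = 0.073), spleen WT replicate 2 (0.13) or spleen KO replicate 2 (0.077), while its value was 0.60 with the GC trend taken out (adjusted p = 5.5e-11) and 0.35 with library totals. The KO effect on Ccl5 was a log2 difference of -2.61 ± 0.04 in the lung and -2.67 ± 0.04 in the spleen, and the difference of 0.05 ± 0.06 did not pass the test (edgeR adjusted p = 0.42), though it was called in edgeR at -0.16 with the GC trend taken out (adjusted p = 0.0079) and, with the other sign, at 0.22 with library totals.

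The second question was how the organs differ in each genotype. In WT mice, Prdm1 and Zeb2 were higher in lung than in spleen NK cells, and Tbx21, Id2 and Gata3 were lower. Prdm1 was 2.09-fold higher (log2 difference 1.05 ± 0.12, SE; edgeR adjusted p = 2.9e-09) and Zeb2 1.51-fold higher (0.59 ± 0.05, edgeR adjusted p = 2.9e-13). Tbx21 was at 0.651 of its spleen level (-0.62 ± 0.05, edgeR adjusted p = 3.3e-14), Id2 at 0.879 (-0.18 ± 0.04) and Gata3 at 0.896 (-0.16 ± 0.04). These 5 of 10 calls (2 higher, 3 lower) stand beside 57.0% of all genes tested, 27.7% higher and 29.3% lower. Eomes, Nfil3, Ets1, Tox and Ikzf3 had log2 differences of -0.09 to 0.07 that did not pass. In KO mice all 10 differed between the organs, beside 65.6% of all genes. Of these, 5 were higher and 5 lower in the lung, beside 33.9% and 31.7%, and Tbx21, Prdm1 and Gata3 stood the other way round from WT. Tbx21 was 3.22-fold higher in lung KO than in spleen KO (1.69 ± 0.04, edgeR adjusted p = 6e-29) and Gata3 1.25-fold higher (0.33 ± 0.04, edgeR adjusted p = 7.1e-09), while Prdm1 was at 0.772 of its spleen level (-0.36 ± 0.11, edgeR adjusted p = 0.0051). The Prdm1 call in KO was lost in DESeq2 (adjusted p = 0.12), without lung KO replicate 2 (edgeR adjusted p = 0.16) and without spleen KO replicate 2 (edgeR adjusted p = 0.075). Eomes was lower in lung KO than in spleen KO by a log2 difference of -0.14 that was not called in DESeq2 (adjusted p = 0.089) or in edgeR without lung KO replicate 2 (adjusted p = 0.25) or spleen KO replicate 2 (0.097). Zeb2 was higher in the lung in both genotypes, by 0.78 ± 0.05 in KO, and Nfil3 was higher by 0.83 ± 0.08 in KO and not called in WT. The comparisons of organs and of genotypes use the same libraries and are not independent of each other.

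**Figure D3:**
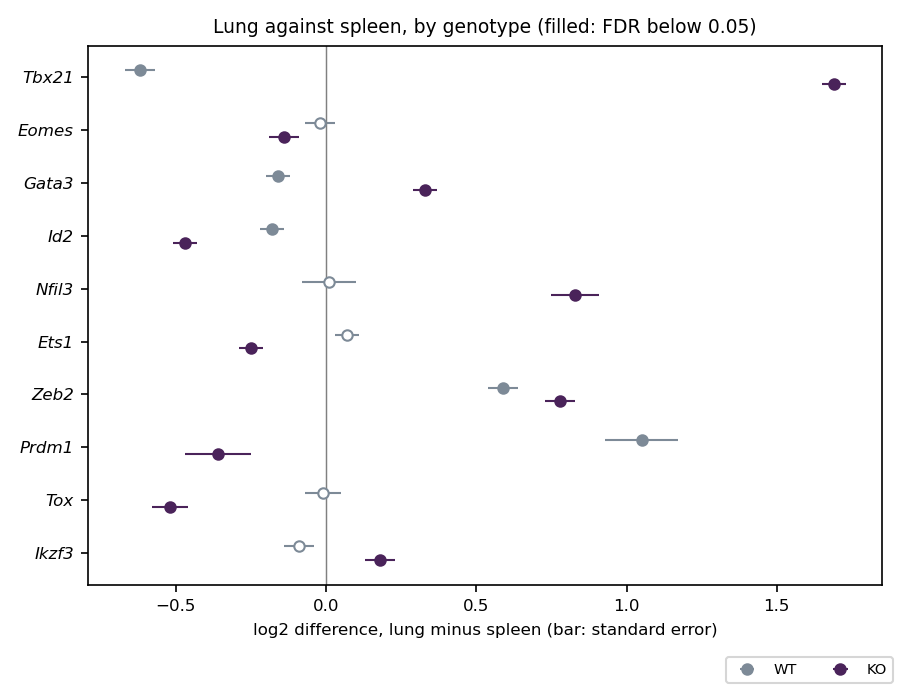
Log2 difference between lung and spleen for each transcription factor, in WT (grey) and in KO (purple), with its standard error, from the edgeR fit to the 8 libraries (filled points, false discovery rate below 0.05). Tbx21, Gata3 and Prdm1 have filled points on both sides of 0, and Zeb2 is at 0.59 in WT and 0.78 in KO.

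Among the 12595 genes tested, those whose profile over the 8 libraries was closest to that of Tbx21, by the root mean square difference of log2 CPM centred on each gene's mean, were Por (0.072), Slc1a5 (0.114), Rasal3 (0.117), Myo1g (0.127) and Steap3 (0.134). Por, which encodes cytochrome P450 oxidoreductase, averaged 23.54 CPM in lung WT and 52.93 CPM in lung KO, and 38.03 CPM in WT spleen and 15.46 CPM in KO spleen. The nearest gene to Eomes was Ablim1 (0.028), to Gata3 Gnai2 (0.016), to Id2 Acaa2 (0.035), to Nfil3 Ralb (0.067), to Ets1 Mrps17 (0.045), to Zeb2 Col4a3bp (0.067), to Prdm1 Zscan26 (0.080), to Tox C330006A16Rik (0.073) and to Ikzf3 Fadd (0.029). Each distance is over the same 8 libraries, and with many genes to choose from a close profile is easily found.

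Genes that are known to depend on T-bet or EOMES were then examined. The list was chosen with earlier results of these data known, so its counts are a description and not independent support. Of 10 such genes, all tested, 6 were higher and 1 lower in lung KO, beside 29.2% and 26.4% of all genes, with a median log2 difference of 0.45. In spleen KO 2 were higher and 4 lower, beside 28.2% and 28.9% of all genes, with a median of -0.06. Il2rb, the receptor chain shared by IL-2 and IL-15, rose by 1.21 ± 0.04 on the log2 scale in lung KO (SE; edgeR adjusted p = 5.2e-24) and fell by 0.61 in spleen KO (edgeR adjusted p = 1.3e-15). Prf1, which encodes perforin, rose by 0.74 in the lung and fell by 0.48 in the spleen. S1pr5, the receptor by which mature NK cells leave lymphoid tissue, rose by 1.02 and fell by 0.51 (0.77 and 0.28 with the GC trend taken out). Not all of the list followed Tbx21. Ifng was higher in KO in the lung and also in the spleen, where it rose by 0.48, Itga2 rose by 0.53 in the spleen, and Klrg1 fell by 0.18 in the lung (by 0.09 with library totals and 0.11 with the GC trend taken out). Gzmb, which encodes granzyme B, did not pass in either organ, with log2 differences of -0.03 in the lung and 0.07 in the spleen. With an assumed coefficient of variation of 0.2, Il2rb (adjusted p = 0.001), S1pr5 (0.0085), Ifng (0.014) and Cx3cr1 (0.041) were still called by edgeR in the lung, and none of the 10 in the spleen.

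**Figure D4:**
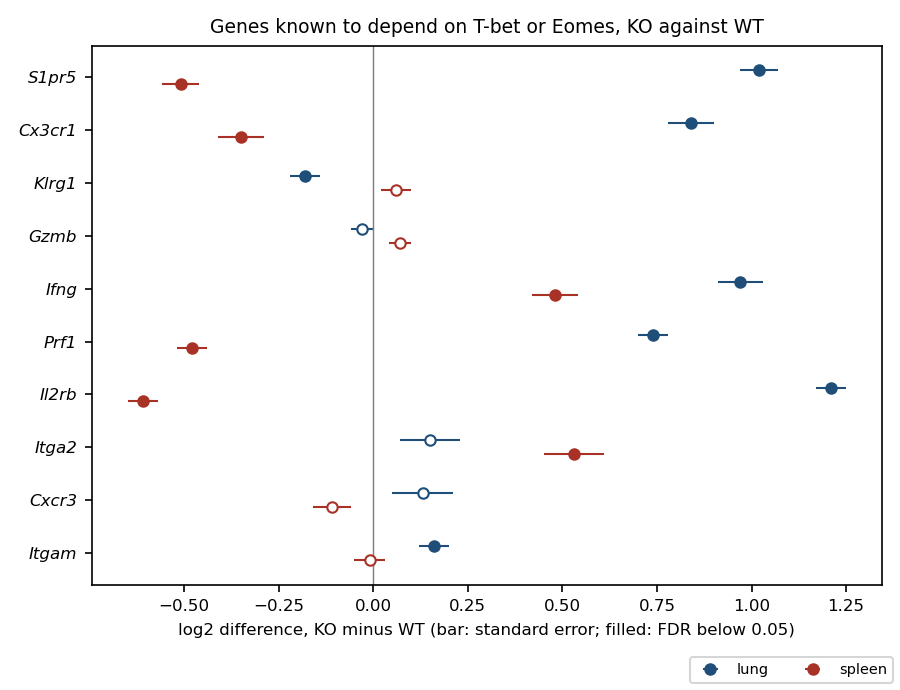
Log2 difference between KO and WT for the 10 genes known to depend on T-bet or EOMES, in the lung (blue) and in the spleen (red), with its standard error (filled points, false discovery rate below 0.05). S1pr5, Cx3cr1, Prf1 and Il2rb lie above 0 in the lung and below 0 in the spleen, Ifng lies above 0 in both, and Gzmb is near 0 in both.

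Of 28 other NK and innate lymphoid transcription factors, 25 were tested. In lung KO 8 were higher and 5 lower, beside 29.2% and 26.4% of all genes, and in spleen KO 5 were higher and 9 lower, beside 28.2% and 28.9%, so that the shares called were near those of all genes. Klf2, a regulator of lymphocyte quiescence and trafficking, rose by 1.21 ± 0.05 in lung KO and fell by 1.37 in spleen KO (edgeR adjusted p = 1.2e-22 and 2.7e-24). With the GC trend taken out, the log2 differences of Klf2 were 0.84 and -1.05. Bhlhe40 rose by 0.55 in lung KO and fell by 0.55 in spleen KO. Zeb1, the relative of Zeb2, fell by 0.56 in lung KO and rose by 0.57 in spleen KO. Bach2, a repressor of effector programmes, fell by 1.04 in spleen KO and Foxo1 rose there by 0.33, a call lost without spleen WT replicate 2 (0.25, edgeR adjusted p = 0.084). Between organs, Irf8 was higher in lung than in spleen by 1.26 in WT and 1.90 in KO, and Tcf7, which encodes TCF-1 of immature NK cells, was lower, with log2 differences of -1.33 and -1.10. Of the E proteins, which ID2 binds, and the other Id proteins, which inhibit E proteins as ID2 does, 5 of 6 were tested. In lung KO 3 were higher and 1 lower, and in spleen KO 1 was higher and 3 lower, beside the same shares of all genes. Id3 rose by 2.31 ± 0.30 in lung KO, from a mean of 1.896 to 10.26 CPM, and fell by 1.04 in spleen KO, from 6.88 to 3.615 CPM. The spleen value of Id3 was -0.46 without spleen WT replicate 2 (edgeR adjusted p = 0.33), and its call was also lost in DESeq2 (adjusted p = 0.058). Tcf3 rose by 0.48 in lung KO and fell by 0.70 in spleen KO, values that were 0.13 and -0.39 with the GC trend taken out. The lung call of Tcf3 was lost there, in DESeq2 (adjusted p = 0.092) and without lung KO replicate 2 (edgeR adjusted p = 0.097). Tcf12 fell by 0.36 in lung KO.

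Surface genes by which NK maturation is staged moved in both directions. Of 11 such genes, all tested, 5 were higher and 4 lower in lung KO, beside 55.6% of all genes called in either direction, and 2 were higher and 5 lower in spleen KO, beside 57.1%. Cd27, carried by the less mature cells, rose by 0.39 in lung KO and by 0.36 in spleen KO. Il7r fell by 1.38 in lung KO and by 0.39 in spleen KO (0.59 with the GC trend taken out), and Kit fell by 1.23 in spleen KO. Cx3cr1, a marker of the most mature cells, rose by 0.84 in lung KO and fell by 0.35 in spleen KO, in the directions of Tbx21, the spleen call being lost without spleen KO replicate 2 (edgeR adjusted p = 0.066). Cd226 fell by 0.69 in lung KO, and by 0.16 when the GC trend was taken out, where the call was lost (edgeR adjusted p = 0.052). Of 10 ILC1 and tissue-residency genes, 2 were higher and 4 lower in lung KO and 2 higher and 3 lower in spleen KO, which is near the shares of all genes called. The 2 that rose in lung KO were Rgs1, by 0.32 (0.78 with the GC trend taken out), and Cd69, by 0.15 (0.61 with the GC trend taken out). The call of Cd69 was lost in DESeq2 (adjusted p = 0.22) and without lung WT replicate 1, lung WT replicate 2 or lung KO replicate 1 (edgeR adjusted p up to 0.15). Itgae, the integrin chain CD103, fell by 1.12 in lung KO and rose by 0.72 in spleen KO. The lung call of Itgae was lost without lung WT replicate 1 (edgeR adjusted p = 0.057), and the spleen call in DESeq2 (adjusted p = 0.18) and without spleen WT replicate 2 or spleen KO replicate 2 (edgeR adjusted p up to 0.18). Cxcr6 fell by 0.79 in lung KO. Its value of 0.27 in spleen KO was called, but not in DESeq2 (adjusted p = 0.25), with the GC trend taken out (0.13, edgeR adjusted p = 0.19) or without spleen KO replicate 2 (0.06, edgeR adjusted p = 0.80). Itga1 (CD49a) fell by 1.27 in spleen KO, and by 1.93 without spleen KO replicate 2. All of these calls are from the same edgeR fit and threshold.

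The directions of the larger differences held over the settings tried. For Tbx21 the log2 difference ranged from 0.82 to 1.23 in the lung and from -1.25 to -0.90 in the spleen over 19 alternatives and was called in each of them. Prdm1 ranged from -0.93 to -0.76 in the lung and from 0.48 to 0.61 in the spleen, and was called in 18 of 19 in each organ. The values near 0, those of Eomes and Zeb2 in the lung and of Id2 in the spleen, changed sign with the setting.

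**Figure D5:**
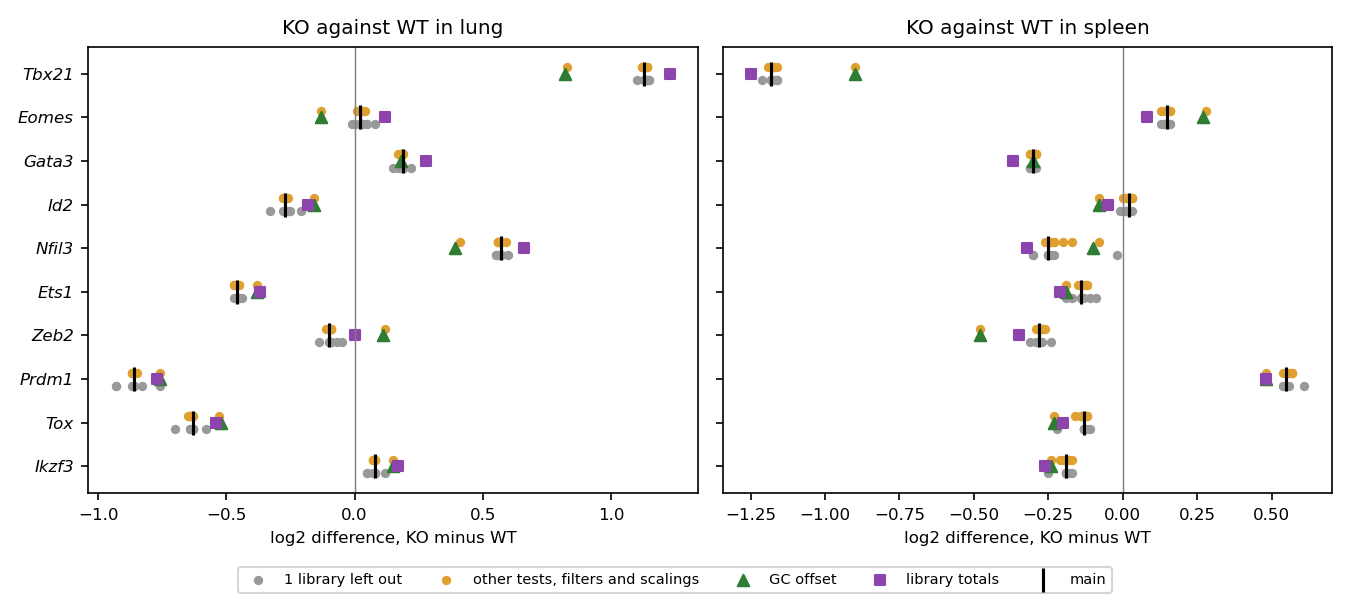
Log2 difference between KO and WT for each transcription factor under the main fit and 19 alternatives, in the lung (left) and in the spleen (right; black bar, main fit; green, GC offset; purple, library totals; grey, 1 library left out; orange, the rest). The points of Tbx21 stay between 0.82 and 1.23 in the lung and between -1.25 and -0.90 in the spleen, and those of Eomes and Zeb2 in the lung and of Id2 in the spleen lie on both sides of 0.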

How the data were processed

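RNA-seq was done on NK cells of 8 samples (organ and genotype from the sample titles). The authors aligned reads to mm10 with HISAT2 2.1.0 and deposited raw HTSeq counts per gene symbol (0.11.1 in the submitters' processing notes). Strand setting and annotation are not given in the sources used here. HTSeq's categories of uncounted reads (among uniquely aligned reads, 52.67% to 55.05% lay on no gene) were left out of library sizes. The analysis used edgeR 4.0.16 (R 4.3.3): filterByExpr, TMM, 1 mean for each of the 4 groups, and the quasi-likelihood test, with p-values adjusted by Benjamini-Hochberg over 12595 genes and a threshold of 0.05. It was tested on simulated data. Exon lengths, GC content (of the longest transcript of a gene) and coordinates are from GENCODE M21 (GRCm38). Promoters are from RefSeq, where 7 of the 10 genes were matched. Alternatives were DESeq2 1.42.0, other scalings and filters, only the libraries compared, a replicate block, a GC offset (spline with 5 degrees of freedom), fits without 1 of the libraries, and a coefficient of variation set to 0.2.

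The genes named are the 10 factors, Ccl5, the genes nearest in profile (5 for Tbx21, 1 for the others) and, from each other list, at most 2 genes in each direction and comparison with the smallest p and separate libraries. Values of named genes in further comparisons were added after their values were seen. Members and lists were chosen with earlier results of these data known. The limits given for a count of 0 cover counting error only.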

Additional observations from a re-analysis of the deposited data

Results flagged for a closer look

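The difference between KO and WT was called as different between lung and spleen NK cells for 9 of the 10 transcription factors. This was a test of the change itself, the interaction in the edgeR fit to the 8 libraries. In it, the deletion cannot be told apart from line or housing. The KO effect in the lung minus that in the spleen, on the log2 scale, was 2.31 for Tbx21, 0.82 for Nfil3, 0.49 for Gata3, 0.27 for Ikzf3 and 0.19 for Zeb2, and -1.41 for Prdm1, -0.50 for Tox, -0.32 for Ets1 and -0.28 for Id2. The same test called 61.6% of all genes, so that a call is not particular to these factors. With the GC trend taken out, Id2 was at -0.07 and was not called (edgeR adjusted p = 0.16). Over the alternatives Nfil3 ranged from 0.49, with the GC trend taken out, to 0.98, with library totals. The call of Zeb2 was lost in DESeq2 (adjusted p = 0.14), while its value was 0.60 with the GC trend taken out. With an assumed coefficient of variation of 0.2 between libraries, the calls of Tbx21 (edgeR adjusted p = 2e-06) and Prdm1 (0.014) were the ones that stood. No explanation of these differences was tested.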

How the results depend on the processing

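Main calls depend most on the spread between libraries. With that spread set to a coefficient of variation of 0.2, the number of the 10 factors called was 1 for KO against WT in the lung, 1 in the spleen, 2 for the difference of these effects, 1 for lung against spleen in WT and 2 in KO, and the share of all genes called was 12.4%, 9.08%, 16.0%, 16.0% and 18.4%. DESeq2 called 35.8% of all genes in the lung and 33.1% in the spleen. Without the filter on low counts, every gene symbol with a read was tested and entered the share, and not only the 12595 genes. The shares were then 35.5% in the lung, 37.0% in the spleen, 38.4% for the difference and 37.0% for the organs in WT. When 1 library was left out, 7 to 8 factors were called in the lung, 6 to 9 in the spleen, 8 to 9 for the difference, 5 to 6 for the organs in WT and 8 to 10 in KO, and the share of all genes was 40.5% to 55.9%, 35.2% to 58.0%, 50.3% to 58.3%, 43.2% to 57.7% and 45.0% to 65.8%.

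Differences near 0 changed sign. With the GC offset the log2 difference was -0.13 for Eomes and 0.11 for Zeb2 in the lung, -0.08 for Id2 in the spleen and 0.11 for Eomes between organs in WT, and with the GC offset and the replicate block it was -0.13, 0.12, -0.08 and 0.11. With library totals it was -0.05 for Id2 in the spleen, 0.04 for Eomes in the difference of effects, and -0.10 for Nfil3 and -0.04 for Ets1 between organs in WT. Over the fits without 1 library the range was -0.01 to 0.08 for Eomes in the lung, -0.01 to 0.03 for Id2 in the spleen, and between organs in WT -0.04 to 0.01 for Eomes and -0.04 to 0.03 for Nfil3. Leaving out lung WT replicate 2 gave 0.00 for Tox there, as did DESeq2 and RLE scaling. The causes were not tested. Library totals shifted the median of all genes by 0.16 for the difference of effects and by -0.11 for the organs in WT, and moved the share of calls that were higher from 52.5% to 63.3% in the lung, from 52.9% to 63.5% for the difference and from 48.6% to 36.9% for the organs in WT.

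Replicate numbers are shared by the groups, but equally numbered libraries did not deviate together in every pair (correlations of -0.0758 to 0.169 over 5103 genes), so the numbers were not taken as pairs. With the replicate block 7 factors were called in the lung and 9 in the spleen, the same genes as without it, and Nfil3 between organs in WT was -0.02. Of the values of the 10 factors under the alternatives, 843 kept their direction and their side of the threshold, 64 kept the direction and lost the call, 13 kept the direction and gained one, and 20 changed sign.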
